A study of Homo sapiens with 6 samples.

Results

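The transcription factors that build and hold the B-cell programme were followed here in a prednisolone-resistant leukaemia line and its sensitive parent. The factors are 10 genes, PAX5, EBF1, TCF3, TCF4, LEF1, FOXO1, BACH2, MEF2C, POU2AF1 and SPIB, taken by gene name from the 25838 genes of the deposited table. The choosing rule uses no measured value, but the genes were chosen with earlier results of these data known. Sup-B15 is a parental line of acute lymphoblastic leukaemia of B-cell precursors and is sensitive to the glucocorticoid prednisolone, Sup-PR is a sub-clone of it that resists the drug, and each line was profiled by RNA sequencing of 3 libraries. No library received any treatment, so the comparison is of the untreated lines. There was 1 parental line and 1 sub-clone, so resistance and any other difference between these lines cannot be told apart. The labels call the libraries of a line biological replicates, although nothing says that the cultures were grown separately, so p-values measure a spread between libraries that may be only technical.

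The libraries held 16966569 to 26603422 counts. The chi-square per gene was 2.95 to 9.71 between libraries of a line, above sampling noise, and 53.2 to 81.3 between lines. Markers of precursor B cells were high in both lines: all 12 of the list were in the table, and their summed level was 9741 to 10949 CPM (counts scaled to the normalised library size, in the usual unit) in Sup-B15 and 7048 to 7830 CPM in Sup-PR. Of these 12 markers, 5 (RAG1, MME, CD9 and CD24 among them) were called lower in Sup-PR (a fold change over 1.5 at an adjusted p under 0.05 in edgeR's test) and 0 higher. Over all genes tested, 15.4% were called lower and 7.53% higher. Of 8 mature B and plasma cell markers, 5 were in the table, and CR2, FCER2 and SDC1 were not. The summed level was 2541 to 2855 CPM in Sup-B15 and 2049 to 2185 CPM in Sup-PR. It was mostly IGHM (means 1642 and 1424 CPM) and XBP1 (808 and 653 CPM). CD38 was called lower, and so was MS4A1, at 5.03 and 0.135 CPM. Markers of other blood cells stood far below these levels. Their sums in Sup-B15 and in Sup-PR were 46.9 to 53.7 and 9.29 to 13.8 CPM for T cells (nearly all TRAC), 52.6 to 60.6 and 22.6 to 23.7 CPM for NK cells (nearly all NKG7), and 14.4 to 20.3 and 4.70 to 6.63 CPM for myeloid cells. The erythroid and megakaryocytic sum stayed between 0.0896 and 0.502 CPM in all 6 libraries, and the stromal sum between 9.58 and 12.3 CPM. The part of these marker shifts in the levels of the factors was not tested. In RNA from whole cultures, fewer cells of a type and less RNA per cell cannot be told apart.

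In a B-cell precursor, the E proteins encoded by TCF3, TCF12 and TCF4 open the programme, EBF1 works with them to switch on early B-lineage genes, and PAX5 then commits the cell by activating B-cell genes and silencing those of other lineages. FOXO1, which is held in the cytoplasm by PI3K and AKT signalling, drives RAG gene and IL7R transcription. LEF1, BACH2 and MEF2C act alongside in pro-B and pre-B cells, and the coactivator POU2AF1 and the ETS factor SPIB become more important as B cells mature. Several of these genes are themselves deleted or rearranged in this leukaemia, and glucocorticoids kill cells of this lineage.

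Upstream sequence is shown for BACH2, which had the largest drop of the 9 tested factors, for EBF1 and for TCF3, the member with a higher level in Sup-PR, because E proteins bind the hexamer CANNTG (the E-box) and these genes regulate one another. The RefSeq sequences (build GRCh38.p14, minus strand for all 3 genes) are the bases before the start that RefSeq annotates, written 5′ to 3′ with E-boxes in capitals. The windows are chr6:90296909-90297093 for BACH2, where 65 further bases next to the start lie in an exon of GENCODE 29 and are left out, chr5:159097957-159098206 for EBF1, whose RefSeq start lies downstream of the gene end used for the counts, so that the window falls inside that gene model but outside its exons, and chr19:1652616-1652865 for TCF3.
BACH2: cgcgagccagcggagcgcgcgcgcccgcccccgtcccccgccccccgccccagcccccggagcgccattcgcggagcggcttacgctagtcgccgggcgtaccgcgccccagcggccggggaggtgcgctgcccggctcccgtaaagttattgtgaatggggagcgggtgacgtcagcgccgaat
EBF1: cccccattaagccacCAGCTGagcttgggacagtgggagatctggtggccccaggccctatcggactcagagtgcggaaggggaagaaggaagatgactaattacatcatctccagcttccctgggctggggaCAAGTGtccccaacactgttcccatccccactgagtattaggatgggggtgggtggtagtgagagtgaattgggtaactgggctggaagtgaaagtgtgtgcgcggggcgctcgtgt
TCF3: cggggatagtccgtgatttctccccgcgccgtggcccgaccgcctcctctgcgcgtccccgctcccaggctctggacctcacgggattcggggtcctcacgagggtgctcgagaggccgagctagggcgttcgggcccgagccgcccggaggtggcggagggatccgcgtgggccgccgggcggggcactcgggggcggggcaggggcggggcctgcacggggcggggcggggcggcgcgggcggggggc
EBF1 carried 2 E-boxes, CAGCTG and CAAGTG, and neither BACH2 nor TCF3 carried one. Of 35114 promoters of 250 bases in the RefSeq table, 61.8% held an E-box. Of the 9 factors found there (all but POU2AF1), 6 had an E-box in at least 1 promoter. MEF2C has 7 promoters there and TCF4 has 10, so counts per factor are not comparable with shares per promoter. The BACH2 (185 bases) and TCF3 stretches were rich in G and C (76.2% and 79.6%), with 31 and 36 CpG pairs, against 57.2% and 6 CpG pairs in EBF1 and medians of 58% and 11 CpG pairs over all promoters. Another 5 motifs were searched on both strands of the 250 bases. CTTTGAT, the TCF and LEF motif, and GAGGAAGT, a PU box, had no match in any factor's promoters and occurred in 2.26% and 2.17% of all promoters. The octamer ATTTGCAT, the FOXO motif GTAAACA and the BACH and MAF core TGAGTCA each matched in 1 factor (MEF2C, TCF4 and MEF2C) and in 1.63%, 2.98% and 4.203% of all promoters. MEF2C and TCF4 are the factors with more than 1 promoter in the RefSeq table.

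The factors were mostly lower in Sup-PR, by small steps. A gene was called when its Benjamini-Hochberg adjusted p, taken over all 14869 genes that passed edgeR's filter on low counts, was under 0.05 and its fold change was over 1.5. Of the 10 factors, 9 were tested, since SPIB had too few counts. By this rule 1 of the 9 was called, beside 23.0% of all genes tested. It was BACH2, called lower, beside 15.4% of all genes tested and 11.1% of the 1011 tested genes that the table assigns to a transcription factor family. With edgeR 0 of 9 were called higher, beside 7.53% of all genes and 5.93% of transcription factors, DESeq2 and limma-voom also called 0, and 1 factor (TCF3) was higher at an unadjusted p under 0.05. At an adjusted p under 0.05 without a minimum fold change, 8 of 9 factors passed, beside 55.4% of all genes and 52.2% of transcription factors. TCF3 was higher, beside 28.0% of all genes and 25.9% of transcription factors, and 7 factors were lower (PAX5, EBF1, TCF4, LEF1, FOXO1, BACH2 and POU2AF1), beside 27.4% of all genes and 26.3% of transcription factors. MEF2C passed neither rule.

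The median log2 fold change of the 9 tested factors (Sup-PR against Sup-B15) was -0.33, beside -0.013 over all genes tested and -0.0057 over transcription factors. Their median absolute change of 0.33 was close to the 0.325 of all genes. In all 9 the 3 Sup-PR libraries did not overlap with the 3 Sup-B15 libraries, 8 of them lower, and 61.1% of all genes tested also showed no overlap. A larger absolute change than that of BACH2 was found in 22.05% of all genes, and 83.2% of genes changed more than MEF2C.

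**Figure D1:**
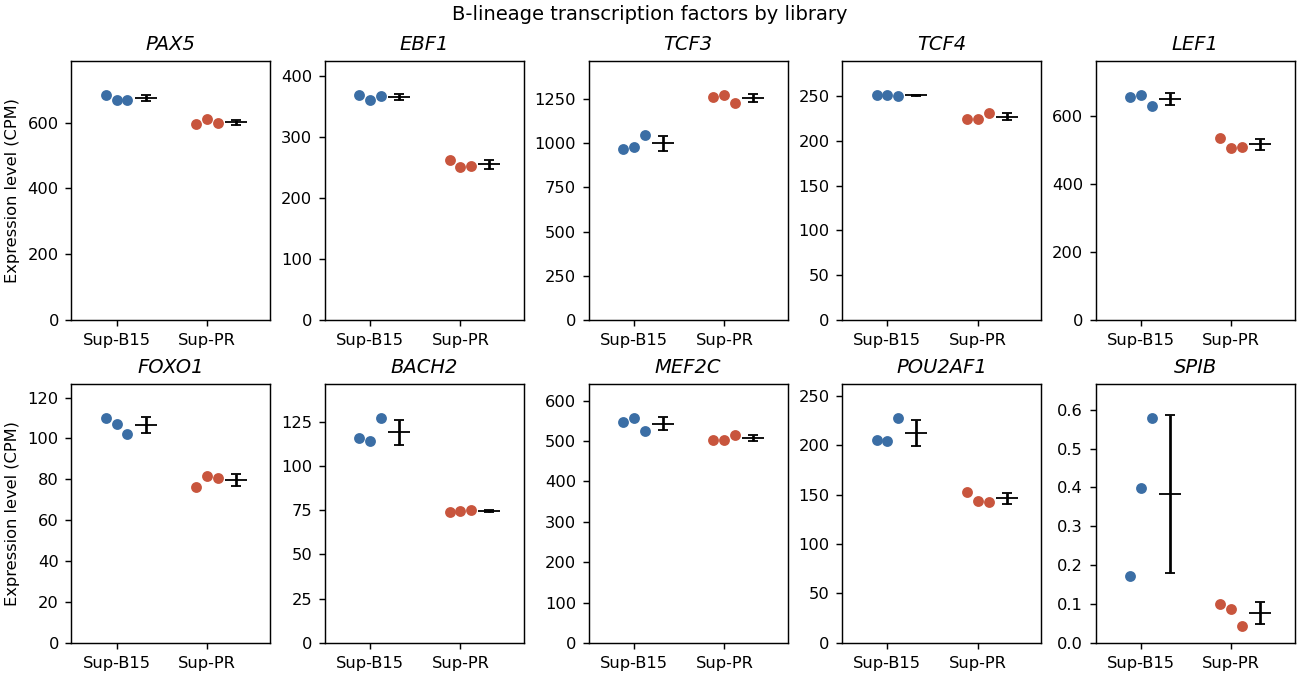
Expression level in CPM (vertical axes, each from 0) of the 10 factors in the 3 Sup-B15 (blue) and 3 Sup-PR (red) libraries; each point is a library, and the bars give the mean ± SD. TCF3 is the factor with the Sup-PR points above the Sup-B15 points, and in the other 9 panels the Sup-PR points lie below, with SPIB under 1 CPM in every library.

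**Figure D2:**
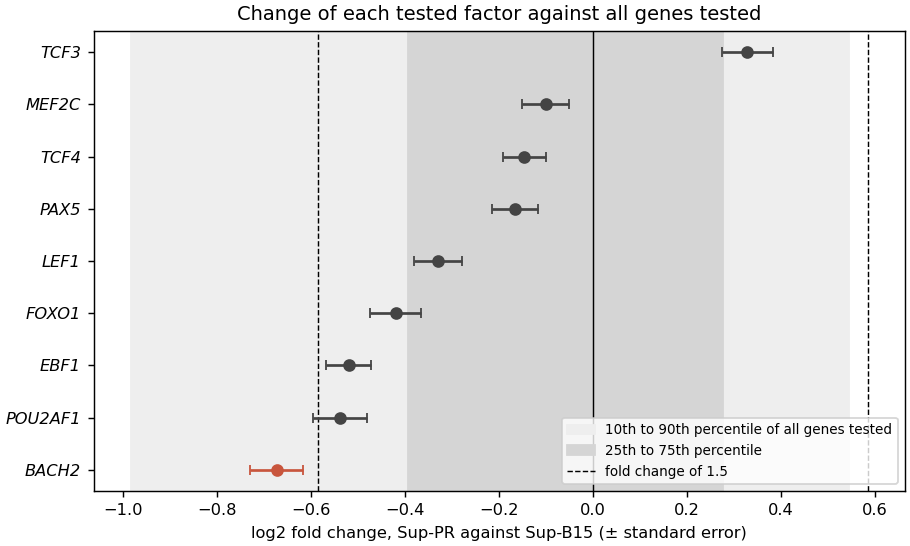
Log2 fold change of Sup-PR against Sup-B15 (horizontal axis) for the 9 tested factors with its standard error, over grey bands that hold the middle of all 14869 genes tested. Only the BACH2 point, drawn in red, lies beyond the dashed line of a 1.5-fold change, and all 9 points lie within the 10th to 90th percentile of all genes.

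EBF1 (ENSG00000164330, GRCh38 chromosome 5 from 158695916 to 159099761, minus strand) encodes the pioneer factor that opens chromatin at early B-cell genes. It stood at 369.2, 360.8 and 368.1 CPM in the Sup-B15 libraries and at 263.1, 250.1 and 252.5 CPM in the Sup-PR libraries. The highest Sup-PR library was thus well below the lowest Sup-B15 library. The level was 1.43-fold lower in Sup-PR (366.0 ± 4.57 against 255.2 ± 6.92 CPM, SD, n = 3; log2 fold change -0.52, SE 0.048, adjusted p = 8.39e-07), short of the 1.5-fold minimum.

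PAX5 (ENSG00000196092, chromosome 9 from 36833275 to 37034185, minus strand), the commitment factor, moved less. It reached 685.2, 670.0 and 670.2 CPM in Sup-B15 and 597.0, 611.0 and 598.2 CPM in Sup-PR. The libraries of each line lay close together, which left the gap outside their spread although it was only 1.12-fold (log2 fold change -0.17, SE 0.049, adjusted p = 0.0108). Without Sup-B15 replicate 1 the adjusted p was 0.0503.

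Among 17 genes that PAX5, EBF1 or E2A (the product of TCF3) are known to activate, 15 were tested, 9 were called lower and 0 higher, with a median log2 fold change of -0.69. By adjusted p alone 11 were lower and 0 higher. Over all genes tested, 15.4% were called lower and 7.53% higher, and by adjusted p alone 27.4% and 28.0%. The same shares stand beside the counts of each list below. CIITA, the master regulator of MHC class II genes, fell from 128.9 ± 3.52 to 9.42 ± 1.11 CPM (log2 fold change -3.78, SE 0.078 and adjusted p = 9.69e-13). CD72, a B-cell co-receptor, fell from 61.9 ± 1.01 to 7.77 ± 1.09 CPM (log2 fold change -3.00), and VPREB3, which helps assemble the pre-B-cell receptor in the endoplasmic reticulum, fell from 96.4 ± 13.2 to 11.5 ± 1.26 CPM (-3.07). These changes were larger than that of any tested factor, but the genes are named for their small adjusted p among those called. Further called genes, named after their values were seen, were the adaptor BLNK, the kinase BLK, the inhibitory lectin CD22, the BAFF receptor gene TNFRSF13C and FCRLA, with log2 fold changes of -0.86, -0.78, -0.69, -0.65 and -3.36. The call of TNFRSF13C was lost without Sup-PR replicate 2 (-0.54). FCRLA had little RNA, at 1.76 ± 0.584 CPM in Sup-B15 and 0.169 ± 0.0695 CPM in Sup-PR (SE 0.44). It was not called on log2(FPKM + 1) without a filter (log2 fold change -0.54).

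Other classical targets on the same list stayed near their Sup-B15 level, which was seen only after their values were known. CD79A, a signalling chain of the B-cell receptor, was at 432.0 ± 20.2 CPM in Sup-B15 and 398.0 ± 25.8 CPM in Sup-PR (log2 fold change -0.12, SE 0.059, adjusted p = 0.106). Its partner CD79B had a log2 fold change of 0.04 (SE 0.068, adjusted p = 0.685). VPREB1 and IGLL1, which make up the surrogate light chain, had log2 fold changes of 0.06 (SE 0.058) and -0.18 (SE 0.080), with adjusted p of 0.406 and 0.0717. These 4 genes are the tested members of the list that did not pass by adjusted p.

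PAX5 also silences genes of other lineages and of plasma cells (JCHAIN, PRDM1 and XBP1 here), and 12 such genes were listed. Of the 9 tested, 4 were called lower and 0 higher (by adjusted p alone 5 lower and 2 higher), and the median log2 fold change was -0.31. JCHAIN, which joins the subunits of secreted antibodies, fell from 19.3 ± 5.84 to 0.418 ± 0.253 CPM (log2 fold change -5.47), and the integrin chain gene ITGAL fell from 5.15 ± 0.114 to 0.276 ± 0.130 CPM (-4.19). LMO2, a cofactor of early blood cells, fell from 71.7 ± 4.51 to 34.0 ± 0.731 CPM (-1.08), and CSF1R, the macrophage growth factor receptor, from 3.84 ± 1.10 to 1.95 ± 0.481 CPM (adjusted p = 0.00453). The called genes of the silenced list were thus lower in Sup-PR, as were those of the activated list.

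Relatives and inhibitors of EBF1, PAX5 and FOXO1 made up a list of 10 genes with 6 tested, of which 3 were called lower and 0 higher, at a median log2 fold change of -0.39. EBF4, a paralog of EBF1, fell from 25.4 ± 1.26 to 6.58 ± 0.180 CPM (adjusted p = 1.28e-09, log2 fold change -1.94). PAX8, a paired-box gene known from thyroid and kidney, fell from 7.95 ± 1.01 to 4.91 ± 1.11 CPM (-0.70), and FOXO6, a forkhead gene best known from brain, from 2.17 ± 0.177 to 1.01 ± 0.479 CPM (-1.09). Without Sup-PR replicate 3 PAX8 was not called (-0.55).

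TCF3 (ENSG00000071564, chromosome 19 from 1609290 to 1652605, minus strand) encodes the E proteins E12 and E47 and was the factor with the most RNA per length in both lines. Its level was 967.7, 979.7 and 1049 CPM in the Sup-B15 libraries and 1262, 1274 and 1228 CPM in the Sup-PR libraries. Every Sup-PR library was above every Sup-B15 library, the opposite order to the other 8 tested factors. The level was 1.26-fold higher in Sup-PR (log2 fold change 0.33, SE 0.055, adjusted p = 0.000182), below the 1.5-fold minimum.

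TCF4 (ENSG00000196628, chromosome 18 from 55222331 to 55664787, minus strand), the E protein best known from plasmacytoid dendritic cells, is a different gene from TCF7L2, the WNT effector that shares its older name. It stood at 250.9, 251.3 and 250.4 CPM in Sup-B15 and at 224.0, 224.8 and 231.2 CPM in Sup-PR. The lines differed 1.11-fold (log2 fold change -0.15, SE 0.046, adjusted p = 0.0149), and the adjusted p rose to 0.0552 without Sup-B15 replicate 2 and to 0.0706 without Sup-PR replicate 2. TCF12, the remaining E protein gene and a listed partner, was at 394.5, 407.4 and 414.5 CPM in Sup-B15 and at 275.2, 272.1 and 276.1 CPM in Sup-PR. It was lower by adjusted p alone (log2 fold change -0.56, SE 0.047, adjusted p = 3.80e-07), again short of 1.5-fold, which it passed without Sup-B15 replicate 1 (-0.59).

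E proteins pair with each other, so the mix of their transcripts was compared within each library as a share of summed counts per kilobase of gene. TCF3 took 75.8%, 75.5% and 76.5% of the sum in Sup-B15 and 84.8%, 85.03% and 84.3% in Sup-PR. TCF12 took 19.9%, 20.2% and 19.5% in Sup-B15 and 11.9%, 11.7% and 12.2% in Sup-PR. The mix thus moved from TCF12 to TCF3, by 8.75 percentage points for TCF3 (75.97 ± 0.517% to 84.72 ± 0.363%, n = 3) and by -7.927 points for TCF12, while the sum of the 3 genes was 216.2 CPM per kilobase in Sup-B15 and 243.6 in Sup-PR. TCF4 held 4.17 ± 0.161% and 3.35 ± 0.108% and moved by -0.828 points. The groups did not overlap for any of the 3 shares, and each exact two-sided permutation test gave p = 0.1, also after Benjamini-Hochberg adjustment over the 3, which is the smallest value possible with 3 libraries against 3. All 3 shares depend on gene length, and for TCF4 the annotated exons add up to 27828 bases while the longest coding transcript has 8343. Without division by length TCF4 held 15.2% in Sup-B15 and 12.9% in Sup-PR, a shift of -2.25 points. TCF3 then held 60.3% and 71.5%, and TCF12 held 24.5% and 15.6%.

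**Figure D3:**
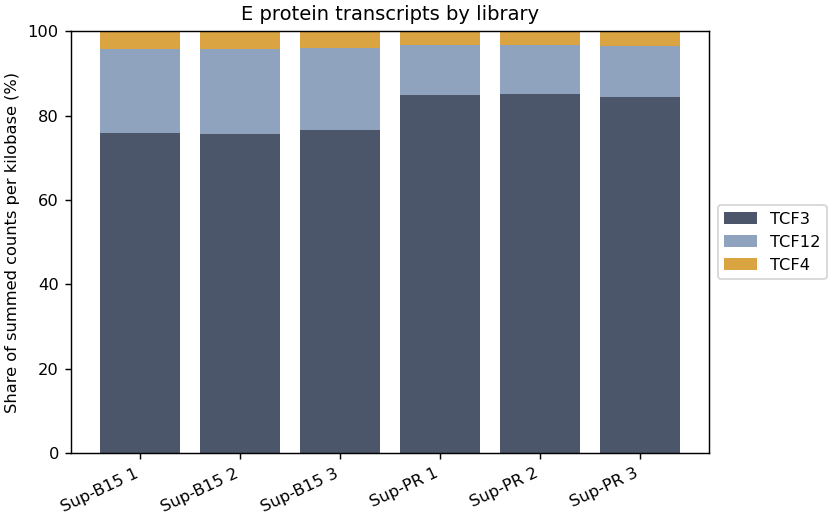
Share of TCF3, TCF12 and TCF4 (vertical axis, percent of their summed counts per kilobase) in each of the 6 libraries; each stacked bar is 1 library. TCF3 takes 75.5% to 76.5% of the bar in Sup-B15 and 84.3% to 85.03% in Sup-PR, and the TCF12 segment shrinks from about 19.9% to 11.9%.

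Partners and inhibitors of E proteins moved in both directions. Of 16 listed genes, 9 were tested, with 1 called higher, 1 called lower, and a median log2 fold change of -0.06. By adjusted p alone 2 were higher and 4 lower. ID2, which blocks E proteins by forming dimers that cannot bind DNA, fell from 52.2 ± 7.70 to 28.0 ± 3.72 CPM (log2 fold change -0.89, SE 0.11, adjusted p = 1.9e-05). Its relative ID3, named after its values were seen, had more RNA and was not called. ID3 was higher by adjusted p alone, at 212.4 ± 10.9 and 249.5 ± 16.8 CPM (log2 fold change 0.23, SE 0.060, adjusted p = 0.00444). CBFA2T3, a corepressor of the ETO family that E proteins recruit, rose from 19.0 ± 2.10 to 57.3 ± 2.20 CPM (log2 fold change 1.58, SE 0.081, adjusted p = 2.94e-09). Among all 37 tested genes of the basic helix-loop-helix family, to which E proteins belong, 7 were called higher and 5 lower. The shares over all genes tested were 7.53% and 15.4%.

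LEF1 (ENSG00000138795, chromosome 4 from 108047545 to 108168956, minus strand), a high-mobility-group factor that carries WNT and beta-catenin signals and supports pro-B cell growth, had the next highest level per length. Sup-B15 libraries gave 655.7, 660.9 and 627.3 CPM and Sup-PR libraries 534.2, 503.9 and 508.8 CPM. The difference was 1.26-fold lower in Sup-PR (log2 fold change -0.33, SE 0.051, adjusted p = 0.000104). The antisense gene LEF1-AS1, which overlaps LEF1 on the opposite strand, was at 13.9 CPM in Sup-B15 and 7.56 CPM in Sup-PR and was called lower (log2 fold change -0.87, SE 0.11, adjusted p = 1.73e-05). Windows of 50 bases shared with another gene's transcripts made up 4.10% of the LEF1 windows, mostly with LEF1-AS1, and the use of strand in counting is not given in the sources used here, so their reads cannot be fully told apart.

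Of 25 listed partners and WNT target genes, 18 were tested, of which 5 were called lower and 1 higher, with a median log2 fold change of -0.21 (by adjusted p alone 9 lower and 5 higher). LGR5, a WNT target and R-spondin receptor, fell from 141.9 ± 11.8 to 49.0 ± 0.869 CPM (log2 fold change -1.54). TCF7, the relative of LEF1 that dominates in T cells, fell from 1.71 ± 0.267 to 0.158 ± 0.0845 CPM (-3.41). TLE3, a Groucho corepressor, had 87 counts over the Sup-B15 libraries and 1 over the Sup-PR libraries, a ratio of 88.6 with a 95% counting interval of 15.5 to 3540. GSK3B, the kinase that marks beta-catenin for destruction, fell from 101.3 ± 5.31 to 67.3 ± 1.85 CPM (-0.59), and ZNRF3, an E3 ligase that removes WNT receptors, rose from 11.4 ± 0.705 to 25.6 ± 2.64 CPM (1.16). GSK3B was not called without Sup-B15 replicate 1 (-0.56) or without Sup-PR replicate 1 (-0.57). The direct feedback target AXIN2, named after its values were seen, had a log2 fold change of -0.12 at 5.78 and 5.27 CPM and did not pass.

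FOXO1 (ENSG00000150907, chromosome 13 from 40469953 to 40666597, minus strand), the forkhead factor under PI3K control, was at 110.1, 107.0 and 102.3 CPM in Sup-B15 and at 76.1, 81.8 and 80.7 CPM in Sup-PR. All 3 Sup-PR libraries were lower. The level was 1.34-fold lower (106.4 ± 3.92 against 79.5 ± 2.98 CPM; log2 fold change -0.42, SE 0.055, adjusted p = 2.16e-05). LINC00598, a non-coding gene on the same strand that overlaps FOXO1, was called lower too (log2 fold change -0.90, adjusted p = 0.0308) at about 1 CPM. With 1 library left out, the call was lost for 5 libraries (adjusted p 0.0592 to 0.107) and kept only without Sup-PR replicate 3. It was also lost with DESeq2 (adjusted p = 0.0931) and with no filter on low counts (0.0573). Of the FOXO1 windows of 50 bases, 3.67% were shared with another gene's transcripts, mostly LINC00598, so their reads cannot be fully told apart.

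Known FOXO target genes did not follow 1 direction. All 20 listed genes were tested, with 3 called lower and 2 higher and a median log2 fold change of -0.19, and by adjusted p alone 10 were lower and 3 higher. RAG1, a subunit of the V(D)J recombinase, fell from 669.9 ± 5.10 to 441.9 ± 14.3 CPM (log2 fold change -0.60, SE 0.050, adjusted p = 3.39e-07). TXNIP, a brake on glucose uptake, fell from 58.1 ± 0.985 to 31.5 ± 1.18 CPM (-0.88), and KLF2, a quiescence and trafficking factor, from 1.20 ± 0.519 to 0.487 ± 0.238 CPM (-1.28). KLF2 was not called without Sup-B15 replicate 3 (adjusted p = 0.0976) or without Sup-PR replicate 2 (0.0748). In the other direction, the repressor BCL6 rose from 36.6 ± 5.21 to 64.8 ± 9.01 CPM (0.82), and CITED2, which competes for the coactivator p300, from 29.4 ± 1.40 to 63.4 ± 1.35 CPM (1.11). RAG2, which pairs with RAG1 and was named after its values were seen, stayed at 54.8 and 54.9 CPM. IL7R, also named after its values were seen, was lower by adjusted p alone and not called. Its level was 388.5 ± 12.8 CPM in Sup-B15 and 281.6 ± 17.3 CPM in Sup-PR (log2 fold change -0.46, SE 0.056, adjusted p = 1.06e-05).

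Upstream of FOXO1, 19 of 20 listed genes of PI3K and AKT signalling were tested. Of these, 3 were called lower and 1 higher (6 lower and 5 higher by adjusted p alone), at a median log2 fold change of -0.05. INPP5D, the lipid phosphatase SHIP1 that limits PI3K output, fell from 398.6 ± 10.5 to 145.9 ± 7.69 CPM (log2 fold change -1.45, SE 0.054, adjusted p = 1.07e-10). The kinase side also declined in part, since PIK3CD, the PI3K catalytic subunit typical of leukocytes, fell from 494.6 ± 9.52 to 292.1 ± 14.4 CPM (-0.76) and PIK3R5, a regulatory subunit of the PI3K gamma complex, from 10.01 ± 0.960 to 3.05 ± 0.406 CPM (-1.71).

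BACH2 (ENSG00000112182, chromosome 6 from 89926529 to 90296908, minus strand) encodes a bZIP repressor that holds back plasma cell genes and, at the pre-B-cell receptor checkpoint, opposes BCL6. It stood at 115.7, 114.1 and 127.2 CPM in Sup-B15 and at 73.9, 74.8 and 75.1 CPM in Sup-PR. The Sup-PR libraries were nearly identical to each other and all far below Sup-B15. BACH2 fell 1.59-fold (119.0 ± 7.13 to 74.6 ± 0.617 CPM; log2 fold change -0.67, SE 0.056, adjusted p = 3.60e-07) and was the factor past both thresholds. Its estimate is close to the 1.5-fold line, and a test against a 1.5-fold change itself (glmTreat) gave an adjusted p of 0.139. The nearest tested protein-coding genes on either side, CASP8AP2 and MAP3K7, had log2 fold changes of 0.10 and 0.03 and were not called.

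Partners and targets of BACH2 showed little change, with 11 of 12 tested, 1 called lower, 0 called higher, and a median log2 fold change of 0.12 (4 higher and 1 lower by adjusted p alone). HMOX1, the heme oxygenase gene repressed by BACH factors, was called lower at 2.03 ± 0.605 and 0.970 ± 0.448 CPM (log2 fold change -1.08, SE 0.35, adjusted p = 0.0175), and not called without Sup-B15 replicate 3 (0.0664) or Sup-PR replicate 2 (0.0702). The corepressor NCOR1 was at 245.9 ± 18.5 and 227.6 ± 7.92 CPM (-0.11, adjusted p = 0.123). PRDM1, the plasma cell regulator restrained by BACH2 and counted with the PAX5-silenced genes, was at 6.39 and 5.94 CPM with a log2 fold change of -0.10, named after its value was seen.

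MEF2C (ENSG00000081189, chromosome 5 from 88717117 to 88904257, minus strand), a MADS-box factor that supports pre-B cell survival and signalling, was the factor with the smallest change. Its levels were 547.6, 557.4 and 525.5 CPM in Sup-B15 and 502.8, 501.9 and 516.3 CPM in Sup-PR. The lines came close without overlapping, and the log2 fold change of -0.10 (SE 0.050) had an adjusted p of 0.103. Among 13 relatives and regulators, 11 were tested, with 1 called lower, 0 higher and a median log2 fold change of 0.01 (3 lower and 1 higher by adjusted p alone). HDAC5, a class IIa deacetylase that binds and represses MEF2 proteins, fell from 155.8 ± 6.25 to 99.0 ± 3.81 CPM (adjusted p = 2.94e-07, log2 fold change -0.65). HDAC7, the class IIa member prominent in pro-B cells, was at 148.9 ± 3.34 and 120.6 ± 2.97 CPM (-0.30) and MEF2D at 348.2 ± 7.57 and 342.7 ± 18.0 CPM (-0.02, adjusted p = 0.730), and neither was called.

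POU2AF1 (ENSG00000110777, chromosome 11 from 111352252 to 111455630, minus strand), the coactivator OCA-B that docks on the octamer-bound POU proteins, stood at 204.7, 204.3 and 227.5 CPM in Sup-B15 and at 152.7, 143.3 and 142.2 CPM in Sup-PR. The groups were separated by a wide gap. The level was 1.45-fold lower in Sup-PR (log2 fold change -0.54, SE 0.057, adjusted p = 3.09e-06), just under the minimum for a call. POU2AF1 is the factor closest to that line from below, ahead of EBF1.

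SPIB (ENSG00000269404, chromosome 19 from 50418938 to 50431313, plus strand), an ETS factor of mature B cells and plasmacytoid dendritic cells, was barely detected. It had 3, 11 and 11 counts in the Sup-B15 libraries and 2, 2 and 1 in the Sup-PR libraries, under 1 CPM everywhere. Summed over libraries these were 25 against 5 counts, a ratio of 5.09 with a 95% counting interval of 1.92 to 17.0 that covers counting error only. With the filter on low counts removed, SPIB was called lower (log2 fold change -2.25, SE 0.79, adjusted p = 0.0149), where 10.8% of all genes were called lower. On log2(FPKM + 1) without a filter, a scale that understates changes of low genes, SPIB did not pass (log2 fold change -0.10, adjusted p = 0.156). At this depth the size of the difference stays imprecise, and 19.0% of its 50-base windows also occur in transcripts of AC020909.1.

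Of the 12 listed partners and targets of POU2AF1 and SPIB, 7 were tested and 6 of these were called lower, 0 higher, at a median log2 fold change of -1.65. By adjusted p alone all 7 tested were lower. BTK, a kinase of B-cell receptor signalling, was at 117.5 ± 6.79 CPM in Sup-B15 and fell to 16.2 ± 1.04 CPM (log2 fold change -2.85, SE 0.071, adjusted p = 6.02e-12). SPI1, the gene of the ETS factor PU.1 that overlaps with SPIB in function, fell from 14.3 ± 2.04 to 3.16 ± 0.469 CPM (-2.17). IRF4, which binds DNA with PU.1 or SPIB, fell from 263.7 ± 5.28 to 145.3 ± 2.16 CPM (-0.86), and the receptor-proximal kinase SYK from 287.2 ± 2.31 to 180.7 ± 4.31 CPM (-0.67). Any called gene must show a larger step than POU2AF1, which fell short of the 1.5-fold minimum, so the sizes are not compared. POU2F2, the octamer protein OCT2 and named after its values were seen, was also called lower, from 1.03 ± 0.105 to 0.325 ± 0.0713 CPM (-1.65).

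Other transcription factors of B-cell precursors, a list of 24 with 21 tested, gave 2 called lower, 1 called higher and a median log2 fold change of -0.10 (8 lower and 5 higher by adjusted p alone). IKZF2, the Ikaros relative Helios, fell from 602.4 ± 35.4 to 368.5 ± 14.1 CPM (log2 fold change -0.71). ETS1 fell from 152.6 ± 7.77 to 76.8 ± 2.76 CPM (-0.99), and the homeobox gene MEIS1 rose from 0.442 ± 0.0865 to 1.60 ± 0.0972 CPM (1.81). IKZF1, the founding Ikaros gene and named after its values were seen, was at 690 and 697 CPM with a log2 fold change of 0.01.

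**Figure D4:**
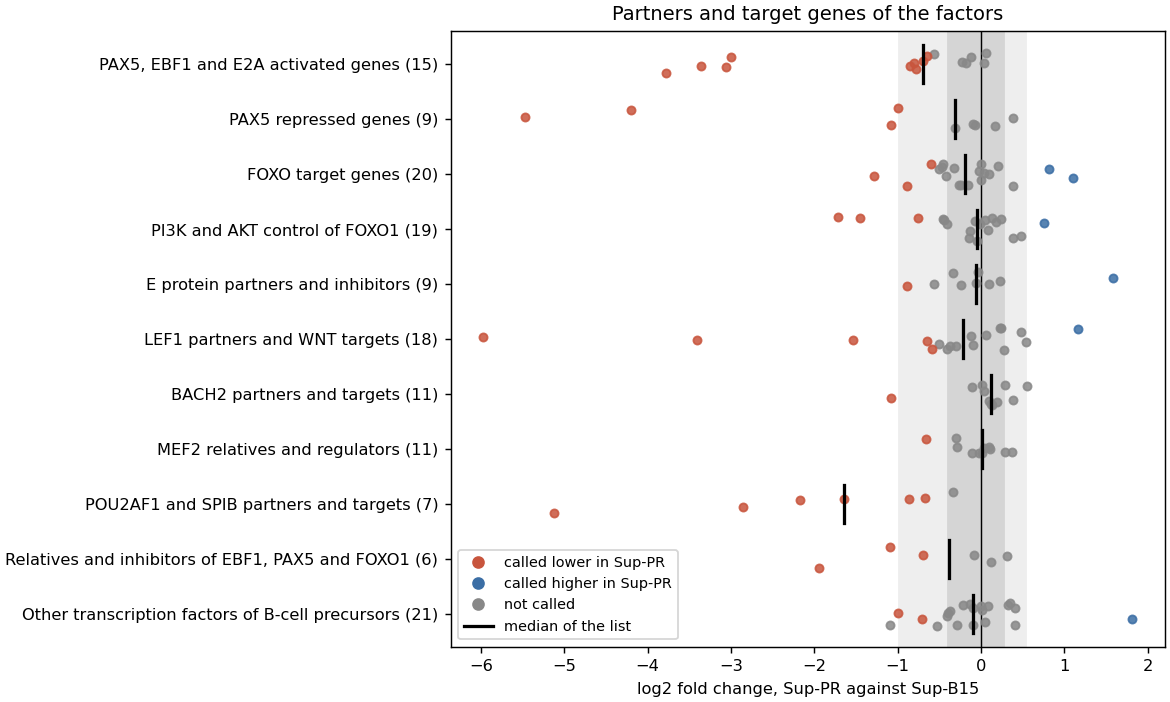
Log2 fold change of Sup-PR against Sup-B15 (horizontal axis) for the tested genes of the 11 lists, with the number tested after each name; points are genes, coloured when called, and black bars are list medians over grey bands of all genes tested. The lists of genes activated by PAX5, EBF1 and E2A and of POU2AF1 and SPIB partners have the lowest medians (-0.69 and -1.65), and the BACH2 and MEF2 lists have medians of 0.12 and 0.01.

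Ranked by level per kilobase, the order of the factors in Sup-B15 was TCF3, LEF1, PAX5, EBF1, MEF2C, POU2AF1, FOXO1, BACH2, TCF4 and SPIB. The means ran from 164.3 CPM per kilobase for TCF3 and 120.9 for LEF1 through 72.3 for PAX5 and 59.2 for EBF1 down to 12.2 for BACH2, 9.02 for TCF4 and 0.0895 for SPIB. Neighbours in this order did not overlap in their library values. In Sup-PR the order was the same except that MEF2C (43.1) came before EBF1 (41.3) and TCF4 (8.15) before BACH2 (7.63). TCF3 was above 98.6% of tested protein-coding genes in Sup-B15 and above 98.8% in Sup-PR on this scale, while BACH2 moved from above 68.9% to above 55.0%. These ranks use the deposited gene length, which equals the summed exons of GENCODE 29 and is for TCF4 much longer than its longest coding transcript.

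Genes that lie beside or within the factors were mostly not called, and of all genes tested 23.0% were called. Of 14 genes of the table that overlap a factor, 4 were tested and 2 were called lower, LEF1-AS1 and LINC00598. The other tested ones, MEF2C-AS1 and the small nuclear RNA copy RNU6-1223P within TCF3, were not called. RNU6-1223P was called lower without Sup-B15 replicate 3 (log2 fold change -1.05). It was also called lower with upper-quartile factors (adjusted p = 0.0488), library totals (0.0498) or at least 10 counts in every library (0.0408). Of the 20 nearest tested protein-coding neighbours, 1 was called higher, the ribosomal protein gene RPL34 beside LEF1 (log2 fold change 0.66), and 2 lower, ATP8B3 beside TCF3 (-0.63) and EMC10 beside SPIB (-0.65). ATP8B3 was not called without Sup-PR replicate 3 (-0.56), and FDX1 beside POU2AF1 was called higher without Sup-B15 replicate 3 (0.60) or Sup-PR replicate 1 (0.61). CLINT1 and RNF145 on either side of EBF1 had log2 fold changes of -0.03 and -0.06, and MELK and ZCCHC7 beside PAX5 had -0.05 and -0.08.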

How the data were processed

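RNA sequencing covered 3 libraries of Sup-B15 and 3 of Sup-PR, assigned by the cell line and number in their labels, and 0 columns of per-sample values were left unmapped. HISAT2 was the aligner and GRCh38.p12 the genome according to the submitters' processing notes, which list CASAVA and DESeq2 as well and give no versions. How strand was handled, which annotation was used and which program counted reads is not given in the sources used here. The authors deposited raw counts per gene, FPKM and a signal column of counts scaled by a size factor per library, together with their own log2 fold change and p-value for each gene, which were not used here. Of the 25838 genes, 25710 have GENCODE 29 coordinates.

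Counts were filtered (filterByExpr) and scaled by TMM, and 14869 genes entered edgeR's quasi-likelihood test. P-values were adjusted after Benjamini and Hochberg. The common biological coefficient of variation was 0.0646. Levels are CPM on the normalised library size. The fit was tested on simulated data. Comparisons of shares between the lines used an exact permutation test. The 10 factors and the 11 lists of 181 genes, written from general knowledge, were chosen with earlier results of these data known, and neither was tested as a set. Named genes are the 10 factors, up to 4 genes per list and direction with the smallest adjusted p among those called (where fewer than 2 were called, also the 2 with the highest count), genes that overlap a factor and its nearest tested protein-coding neighbours, and others are said to be named after their values were seen. Results were recomputed under 21 other settings: DESeq2, limma-voom, glmTreat, other scalings, filters and thresholds, limma on the log2 of FPKM plus 1 or 0.1, each library left out, and the replicate number as a block. Promoters came from the RefSeq table. Replicate numbers were checked for pairing, which 3 libraries per line cannot decide, and the main fit does not pair the libraries. Python 3.11.15 (pandas 2.3.3, numpy 2.4.6, SciPy 1.17.1, matplotlib 3.10.9) and R 4.3.3 (edgeR 4.0.16, limma 3.58.1, DESeq2 1.42.0) were used. The other experiments of the study were not analysed here, and some genes that the naming rule gives are not reported here.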

Additional observations from a re-analysis of the deposited data

How the results depend on the processing

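BACH2 was called lower in 19 of the 21 other settings (log2 fold change -0.74 to -0.60), all but glmTreat against a 1.5-fold change and a fold change over 2, where 0 factors were called lower. The number of factors called lower was 2 with upper-quartile factors (BACH2 and POU2AF1) and 3 with library totals (also EBF1). Under these 2 scalings the median log2 fold change over all genes tested was also lower, -0.071 and -0.082 beside -0.013 in the main setting. POU2AF1 (-0.60 and -0.61) and, with library totals, EBF1 (-0.59) lay just past the 1.5-fold line. The number was 2 with no filter on low counts (BACH2 and SPIB), beside 10.8% of all genes. It was 7 with no minimum fold change, beside 27.4% of all genes, and this setting also called 1 factor higher, beside 28.0%. Every tested factor kept its direction in all 21 settings. By adjusted p alone, EBF1, TCF3, LEF1, FOXO1, BACH2 and POU2AF1 passed in all 18 settings that change the fit, apart from glmTreat, PAX5 in 17, TCF4 in 15 (log2(FPKM + 1) gave 0.0528) and MEF2C in 6. Over all genes, the counts called higher and lower were 630 and 941 on log2(FPKM + 1), 647 and 1080 on it without a filter, 484 and 1318 with glmTreat, 4168 and 4069 with no minimum fold change and 382 and 1416 at a fold change over 2, and 1268 were called lower on log2(FPKM + 0.1). Of 462 counts of list genes called, 406 stayed within 1.5 times the main count. The other 56 were as follows, with the E protein list meaning its partners and inhibitors. E protein genes called lower were 2 with upper-quartile factors, library totals or protein-coding genes only. With at least 10 counts in every library, lower calls were 2 in the PAX5 repressed, 2 in the E protein and 3 in the LEF1 list, and 0 of the other B-cell factors were called higher. On log2(FPKM + 1), lower calls were 2 in the PAX5 repressed, 1 each in the FOXO target, LEF1 and relatives lists and 0 in the BACH2 list, and without its filter 1, 1, 1 and 0 in the last 4. On log2(FPKM + 0.1) they were 2 PAX5 repressed, 2 LEF1, 0 BACH2 and 1 relatives, and 0 other factors were called higher on any FPKM scale. With glmTreat, 1 FOXO target was higher, and 1 FOXO target, 3 LEF1, 0 BACH2, 0 MEF2 and 1 relatives gene were lower. With no minimum fold change, higher calls were 2 PAX5 repressed, 5 PI3K, 2 E protein, 5 LEF1, 4 BACH2, 1 MEF2, 1 relatives and 5 other factors, and lower calls were 10 FOXO, 6 PI3K, 4 E protein, 9 LEF1, 3 MEF2 and 8 other factors. At a fold change over 2, 1 FOXO target and 0 PI3K genes were higher, and 4 PAX5 activated, 1 FOXO, 0 E protein, 3 LEF1, 0 MEF2 and 0 other factors were lower. With each library left out, lower calls ranged from 1 to 2 in the E protein list, 0 to 1 in the BACH2 list and 2 to 4 among the other factors, and higher calls from 0 to 1 in the MEF2 list. Over all genes tested, the median change (log2) stayed between -0.088 and 0.047. The share shifts of TCF3, TCF4 and TCF12 were 11.1, -2.25 and -8.87 points without division by length and 11.0, -2.51 and -8.48 points with the median length of coding transcripts, an alternative chosen after seeing the data. Correlations of deviations were 0.134, -0.064 and 0.196 for same-numbered libraries and -0.250 to 0.153 for differently numbered ones. With 3 libraries per line these values cannot decide whether replicate numbers pair the libraries. With the replicate block 1134 genes were called higher and 2376 lower, 1 factor lower (BACH2) and 0 higher, and MEF2C had an adjusted p of 0.0260. Among the factors, depth limited the precision of SPIB.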

Other observations

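The families to which the factors belong, as the deposited table assigns them, gave these calls. Of the 2 tested genes in the family of EBF1 and of the 2 in that of PAX5, 1 each was called lower and 0 higher, and by adjusted p alone 2 each were lower. Of 43 tested bZIP genes, the family of BACH2, 4 were called higher and 9 lower, and of 30 high-mobility-group genes, the family of LEF1, 2 were called higher and 3 lower. Forkhead genes, the family of FOXO1, gave 2 higher and 2 lower of 17. Of 19 ETS genes, the family of SPIB, 0 were called higher and 3 lower, while by adjusted p alone 4 were higher and 7 lower. The 4 tested genes of the family of MEF2C gave 0 calls in either direction, with 1 higher by adjusted p alone. These counts come from edgeR's test over all genes, in which 7.53% were called higher and 15.4% lower. By adjusted p alone the shares were 28.0% and 27.4%. Whether a family differs from these shares was not tested.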
